A study of Mus musculus with 16 samples.

Results

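The genes described here are 35 genes of neuronal differentiation, taken as a list and matched by Ensembl identifier in the count tables of all 16 libraries. All 35 were found among 54838 identifiers, and all 35 were among the 21284 genes that passed the filter on low counts. They comprise 20 pan-neuronal genes (12 of the cytoskeleton and growth cone, 4 RNA-binding proteins, 4 vesicle and membrane proteins), 11 genes of early postmitotic neurons (9 transcription factors, 2 axon surface proteins) and 4 genes of sensory and peripheral neurons. The libraries are poly-A selected RNA of mouse embryos at E10.5, taken from the Head, cut above the third branchial arches, or the Tail, the part caudal to the forelimbs. Within each region there were 4 genotypes with n = 2 libraries each: wild type (WT), Gpr161 KO, Fuz KO, and the double knockout Fuz;Gpr161 DKO (DKO). Fuz encodes a planar cell polarity effector needed to build cilia, and Gpr161 a ciliary receptor that restrains Hedgehog signalling. Strain, allele, Cre and treatment are not in the labels, nor is it said that a group's libraries are separate embryos, so the p-values reflect the spread of these samples, which may be technical.

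Neurons arise from dividing progenitors of the neural tube and from the neural crest and placodes, which form the sensory ganglia. As a cell leaves the cycle, proneural factors of the basic helix-loop-helix (bHLH) class switch on downstream factors such as the Neurod, Nhlh, Ebf, Onecut and Myt1 genes, and these precede the genes of the neuronal cytoskeleton, RNA-binding proteins and vesicle machinery. Differentiation runs ahead in anterior and ventral parts of the neural tube, while the caudal end of the embryo at this stage is still being laid down.

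Total counts per library ran from 39062489 to 53680317. Levels are CPM, a gene's counts scaled to the library's TMM-adjusted total, and differences are log2 fold changes ± standard error (SE) from edgeR's quasi-likelihood test, called at a Benjamini-Hochberg adjusted p under 0.05 over all genes tested. Fuz was at 0.808 to 1.89 CPM in the 8 libraries that lack it and 4.95 to 9.21 in the others, and Gpr161 at 2.12 to 5.44 against 24.3 to 54.9. The 4 WT libraries had Xist and no more than trace Y-linked transcripts, the Fuz KO and DKO libraries were male, and the Gpr161 KO pair held a male (number 1) and a female (number 2), so sex and genotype cannot be told apart for Fuz KO and DKO.

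Per kilobase of exon, Tubb3, the neuron-specific beta-tubulin, was the most abundant of the 35 in Head WT, with a mean of 204 CPM per kb. Gap43, a growth cone protein (61.9 CPM per kb), and Tagln3, an actin-associated protein (45.6), came next. All 9 leading genes on this scale were cytoskeletal, from Tubb3 down to the stathmin Stmn2 at 16.9 CPM per kb. The lowest were the neurotrophin-3 receptor Ntrk3 (0.297 CPM per kb), the calcium sensor Syt1 (0.869) and the homeodomain factor Onecut1 (0.912). The pan-neuronal markers that define neurons, Tubb3, Dcx, Elavl3, Elavl4 and Stmn2, were detected in all 16 libraries.

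**Figure D1:**
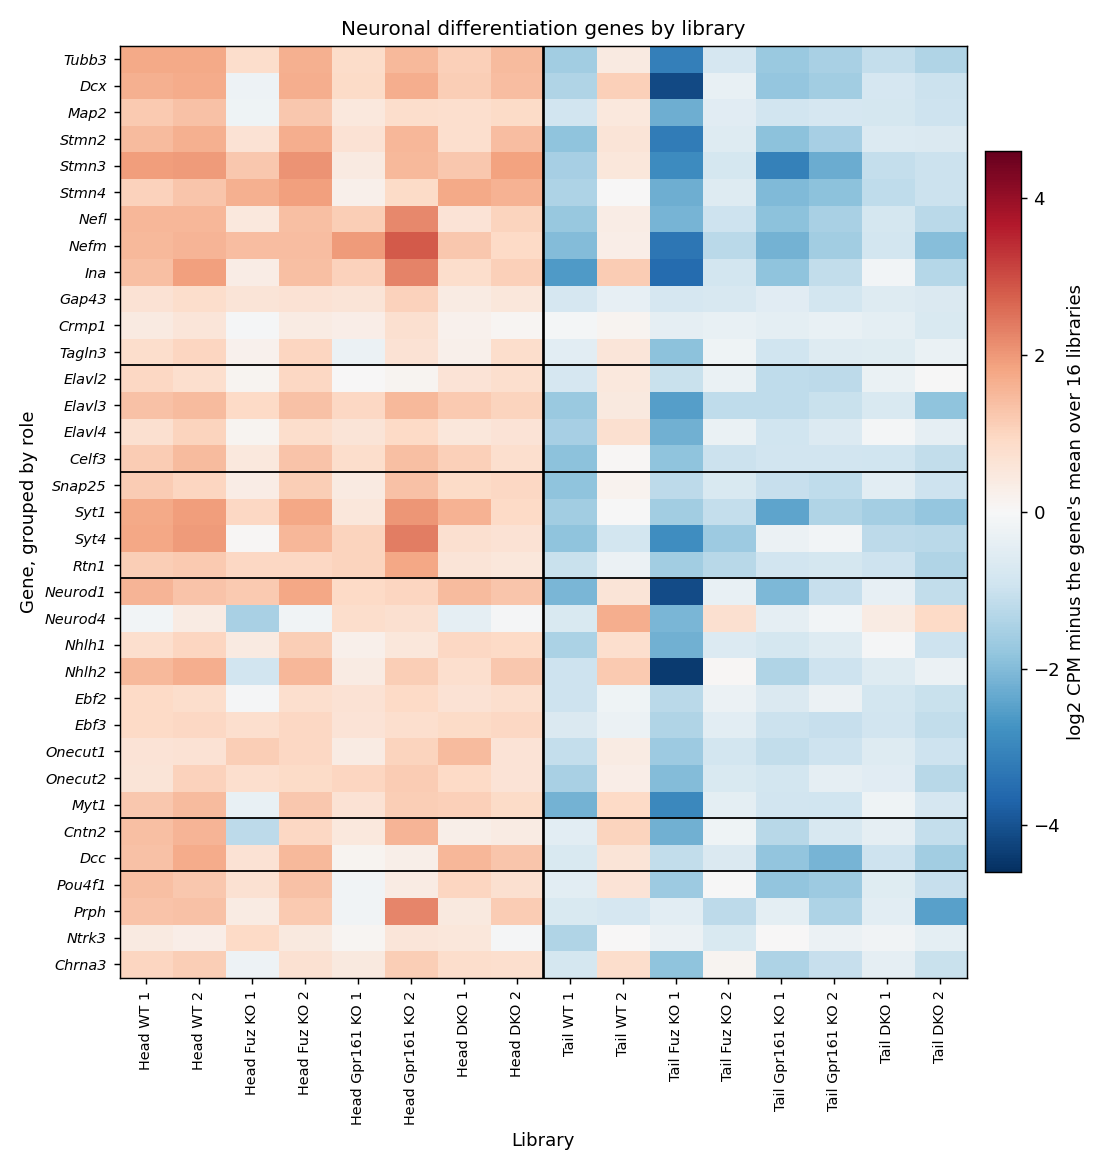
Each row is one of the 35 genes, grouped by role with black lines between roles, and each column one of the 16 libraries. Colour gives the log2 CPM of the gene minus its mean over the 16 libraries. The 8 Head libraries on the left are mostly red and the 8 Tail libraries mostly blue, Tail WT 2 is redder than Tail WT 1 in 34 of 35 genes, and Tail Fuz KO 1 holds the lowest value of 24 genes.

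Between regions, 33 of the 35 genes were higher in the Head than in the Tail over the 4 genotypes, against 13.2% of all genes tested, and 0 were lower, against 10.6%. The median difference of the 35 was log2 1.70, and 18 of them had all 8 Head libraries above all 8 Tail libraries, against 3.92% of all genes. Only Neurod4, a bHLH factor of early neurons, and Nhlh2, a bHLH factor of young postmitotic neurons, did not pass. In bulk tissue, fewer neurons and less RNA of these genes per neuron cannot be told apart. This comparison averages the 4 genotypes and was added after the data were seen. Without each library in turn, the calls of Cntn2 and Elavl4 held in 3 of 16 settings, of Myt1 in 4, of Ina in 8, of Dcx in 11 and of Tagln3 in 15, and the other 27 calls held in all 16.

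In WT alone, 6 of 35 genes were higher in the Head and 0 were lower, while 2.02% of all genes were called higher and 1.74% lower. The 6 were Gap43, Rtn1, Syt1, Syt4, Ebf2 and Ebf3, and the median over all 35 was log2 1.37 with 34 above 0. At an unadjusted p under 0.05, 21 were higher (7.42% of all genes), and in 33 both Head WT libraries lay above both Tail WT libraries, against 24.8% of all genes. Deviations of Head and Tail libraries of 1 number and genotype correlated over all genes, weakly in WT (r of 0.133 with a prior count of 2). With that number as a block 12 genes were called higher (9.43% of all genes called either way): the same 6 with Map2, Stmn4, Crmp1, Celf3, Dcc and Pou4f1. The count without a block rests on the Tail WT libraries: more genes were called without Tail WT 2, and without Tail WT 1 only Gap43 and Rtn1 were left. Over all 25 alternatives the median ran from log2 0.88 to 2.35. DESeq2 called 11 higher, against 3.86% of all genes.

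Within the mutants the regions differed in the same direction, with 12 genes higher in the Head in Fuz KO (3.66% of all genes), 16 in Gpr161 KO (4.7%) and 10 in DKO (4.11%). In each, 0 were lower, against 2.65%, 2.23% and 2.93% of all genes. The medians were log2 2.02, 2.04 and 1.70. DESeq2 called 25, 25 and 19 higher (5.67%, 7.06% and 6.03% of all genes). The counts fell or rose widely when single libraries were left out, and in Gpr161 KO fell to 10 with sex as a term. Fewer genes were called in Fuz KO without both Fuz KO 1 libraries. The share of all genes called can shift in such settings too, so these are not changes of the 35 genes alone. Over all 25 alternatives the medians ran from log2 1.49 to 2.77 in Fuz KO, 1.58 to 2.29 in Gpr161 KO and 1.55 to 1.93 in DKO. Whether the difference between regions itself varied with genotype was tested, and 0 of 35 genes passed for Fuz KO, Gpr161 KO or DKO against WT, as set out further on.

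**Figure D2:**
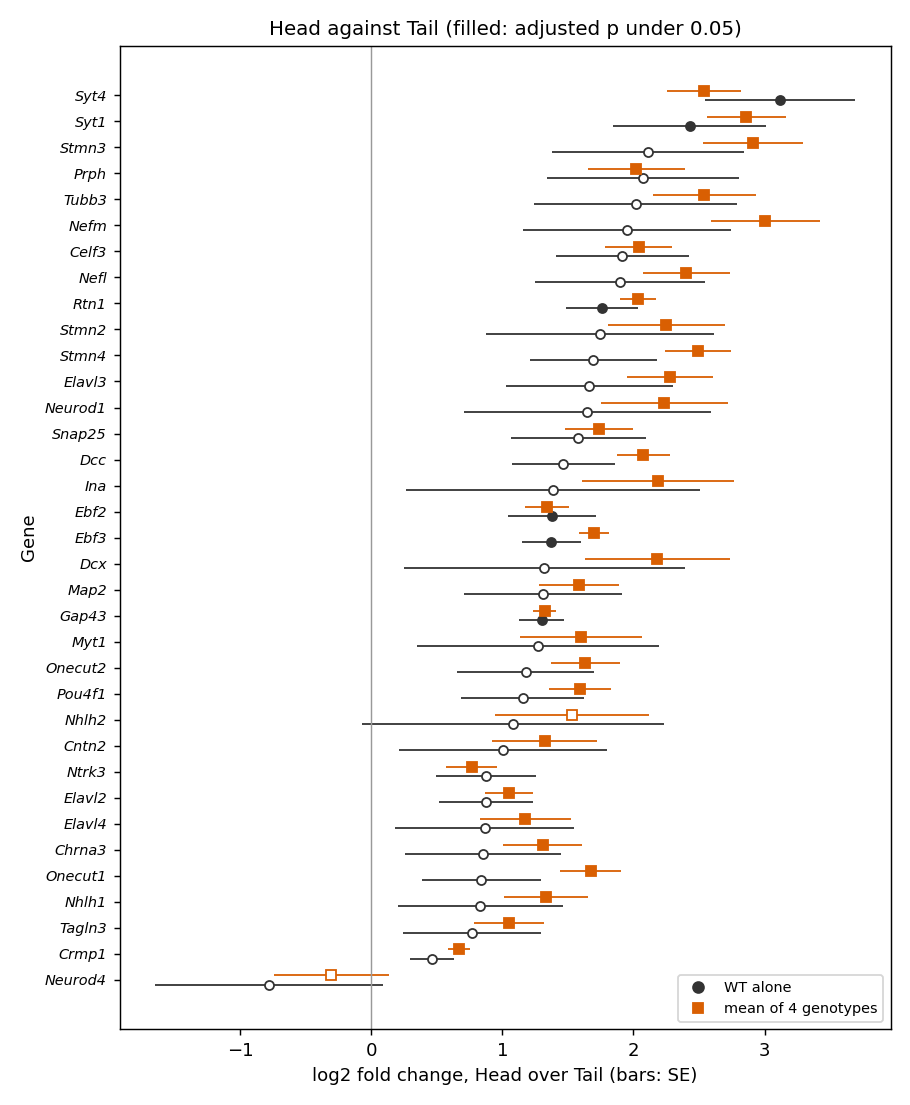
Points give the log2 fold change of Head over Tail for each of the 35 genes, black circles for WT alone and orange squares for the mean of 4 genotypes, with bars of 1 SE. Filled symbols passed an adjusted p under 0.05. All squares except Neurod4 lie above 0, 33 of them filled, and 6 circles are filled.

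Among the 12 cytoskeletal and growth cone genes, all 12 were higher in the Head over the 4 genotypes, with a median of log2 2.22. Gap43 had the lowest adjusted p of the 35. In the Head, Gap43 was at 90.5 and 98.2 CPM for WT, 72.4 and 80.0 for DKO, 85.9 and 89.7 for Fuz KO and 85.0 and 119 for Gpr161 KO. In the Tail, Gap43 was at 33.2 and 43.4 CPM for WT, 37.6 and 35.8 for DKO, 32.7 and 33.7 for Fuz KO and 39.3 and 31.1 for Gpr161 KO. All 8 Head values lay above all 8 Tail values, with Head Gpr161 KO 2 the highest and Tail Gpr161 KO 2 the lowest. Gap43 differed between regions by log2 1.32 ± 0.09, adjusted p = 2.25e-07 over the genotypes and by log2 1.30 ± 0.17, adjusted p = 0.000707 in WT.

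Tubb3 was far more variable within the Tail. Its Head values were 380.5 and 382 CPM for WT, 247 and 317 for DKO, 200.2 and 353 for Fuz KO and 205 and 323 for Gpr161 KO. Its Tail values were 37.2 and 151 CPM for WT, 53.6 and 43.5 for DKO, 12.8 and 67.2 for Fuz KO and 34.7 and 40.2 for Gpr161 KO. The groups did not overlap between regions, but Tail WT 2 was several times above Tail WT 1, and Tail Fuz KO 2 above Tail Fuz KO 1. The difference was log2 2.54 ± 0.39, adjusted p = 0.00128 over the genotypes, while in WT alone it did not pass (log2 2.02 ± 0.77, adjusted p = 0.262).

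Dcx, a microtubule-associated protein of migrating young neurons, showed the same spread. In the Head, Dcx was at 74.5 and 77.8 CPM for WT, 52.7 and 64.3 for DKO, 20.5 and 76.9 for Fuz KO and 43.9 and 76.6 for Gpr161 KO. In the Tail, Dcx was at 9.28 and 51.6 CPM for WT, 14.2 and 12.3 for DKO, 1.37 and 19.0 for Fuz KO and 7.01 and 8.00 for Gpr161 KO. Head Fuz KO 1 stood well below the other Head libraries and under Tail WT 2, so the regions overlapped. Dcx passed over the 4 genotypes (log2 2.18 ± 0.55, adjusted p = 0.0197) and did not pass in WT (log2 1.32 ± 1.07, adjusted p = 0.732).

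Nefm, the medium neurofilament subunit, had the largest difference of the 35 over the genotypes (log2 3.01 ± 0.41, adjusted p = 0.000627). In the Head, Nefm was at 176 and 189 CPM for WT, 149 and 119.8 for DKO, 170.1 and 171 for Fuz KO and 246 and 448 for Gpr161 KO. In the Tail, Nefm was at 16.0 and 78.4 CPM for WT, 35.3 and 16.3 for DKO, 6.37 and 26.5 for Fuz KO and 14.0 and 20.8 for Gpr161 KO. Both Head Gpr161 KO libraries were above every other library, and Tail Fuz KO 1 was the lowest. The light subunit Nefl (log2 2.40 ± 0.33) and alpha-internexin, Ina (log2 2.19 ± 0.58), were also higher in the Head. Exons of Nefl and Nefm overlap on opposite strands over 32.8% of Nefl's and 19.2% of Nefm's exon length, and the counter's strand setting is not given in the sources used here, so reads of the pair may be shared.

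The stathmins, which regulate microtubule growth, were among the most different. Stmn3 ran from 12.9 to 40.2 CPM in the Head libraries and 1.11 to 13.8 in the Tail libraries (log2 2.91 ± 0.38, adjusted p = 0.000275). Stmn4 ran from 8.57 to 27.0 CPM in the Head libraries and 1.52 to 7.36 in the Tail libraries (log2 2.49 ± 0.25, adjusted p = 1.33e-05), and Stmn2 from 50.4 to 101 CPM in the Head libraries and 3.40 to 47.7 in the Tail libraries (log2 2.25 ± 0.44). The regions overlapped for Stmn3, where Head Gpr161 KO 1 lay below Tail WT 2, and not for Stmn2 or Stmn4. The smallest difference of the 12 was that of Crmp1, a mediator of semaphorin signalling (log2 0.67 ± 0.08, adjusted p = 5.37e-05), which ran from 84.7 to 145 CPM in the Head libraries and 54.3 to 95.6 in the Tail libraries. Map2, a microtubule-associated protein of dendrites (log2 1.58 ± 0.30), and Tagln3 (log2 1.05 ± 0.27) lay between.

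**Figure D3:**
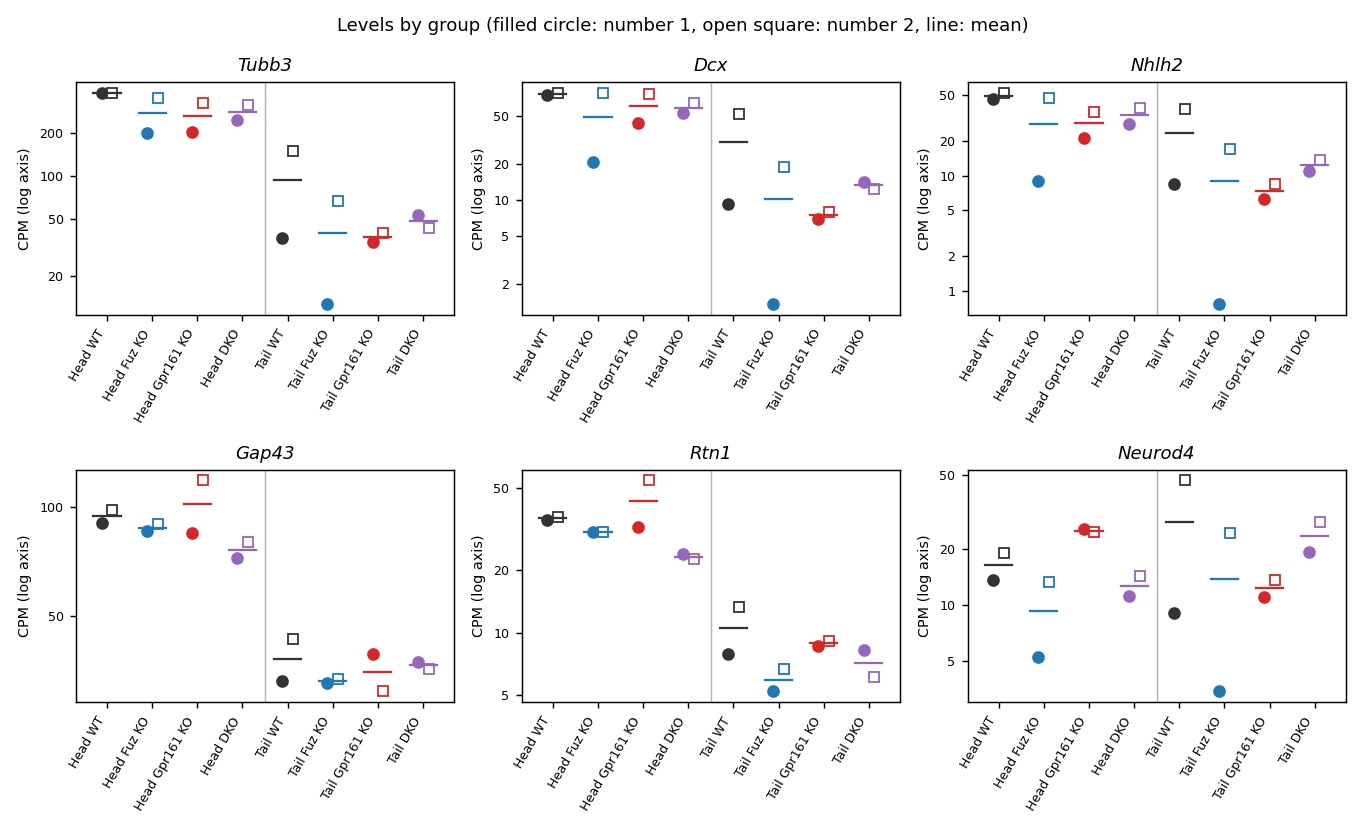
CPM on a log axis by group for Tubb3, Dcx, Nhlh2, Gap43, Rtn1 and Neurod4, with number 1 as filled circles, number 2 as open squares and the group mean as a line. Gap43 and Rtn1 separate Head from Tail in all 16 libraries, Tubb3 does so with wide spread in the Tail, and Neurod4 overlaps, with its highest value in Tail WT 2 (47.0 CPM).

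All 4 RNA-binding genes were higher in the Head over the genotypes, with a median of log2 1.61. Elavl3, a Hu protein that binds neuronal mRNAs, was in the Head at 61.3 and 67.1 CPM for WT, 56.3 and 49.2 for DKO, 45.4 and 61.1 for Fuz KO and 47.0 and 68.7 for Gpr161 KO. In the Tail, Elavl3 was at 7.46 and 33.1 CPM for WT, 14.9 and 6.67 for DKO, 4.25 and 10.8 for Fuz KO and 10.9 and 12.1 for Gpr161 KO. The lowest Head value was above the highest Tail value, that of Tail WT 2. The difference was log2 2.28 ± 0.33, adjusted p = 0.000588 over the genotypes and log2 1.66 ± 0.64, adjusted p = 0.255 in WT. The other Hu genes differed less, Elavl2 by log2 1.05 ± 0.18 and Elavl4 by log2 1.18 ± 0.35, and the splicing regulator Celf3 by log2 2.04 ± 0.26.

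The 4 vesicle and membrane genes were all higher in the Head, with a median of log2 2.29. Rtn1, a reticulon of the neuronal endoplasmic reticulum, was in the Head at 35.1 and 36.5 CPM for WT, 24.1 and 22.6 for DKO, 30.6 and 30.7 for Fuz KO and 32.4 and 54.7 for Gpr161 KO. In the Tail, Rtn1 was at 7.89 and 13.2 CPM for WT, 8.22 and 6.07 for DKO, 5.18 and 6.64 for Fuz KO and 8.65 and 9.14 for Gpr161 KO. All 8 Head values were above all 8 Tail values, and Head Gpr161 KO 2 was the highest. The difference was log2 1.76 ± 0.27, adjusted p = 0.00236 in WT and log2 2.03 ± 0.14, adjusted p = 2.96e-07 over the genotypes.

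Syt1, the calcium sensor of synaptic vesicle release, had Head values of 6.75 and 7.74 CPM for WT, 6.17 and 3.86 for DKO, 3.89 and 7.04 for Fuz KO and 2.91 and 8.33 for Gpr161 KO. Its Tail values were 0.670 and 2.01 CPM for WT, 0.692 and 0.587 for DKO, 0.670 and 0.938 for Fuz KO and 0.379 and 0.774 for Gpr161 KO. Syt4, a related synaptotagmin of dense-core vesicles, had Head values of 5.04 and 5.70 CPM for WT, 2.47 and 2.32 for DKO, 1.53 and 4.23 for Fuz KO and 3.03 and 7.56 for Gpr161 KO. These were low levels, and for both genes every Head library was above every Tail library. In the Tail, Syt4 was at 0.407 and 0.823 CPM for WT, 0.646 and 0.626 for DKO, 0.206 and 0.469 for Fuz KO and 1.23 and 1.34 for Gpr161 KO, with both Gpr161 KO libraries the highest. In WT the differences were log2 2.43 ± 0.58, adjusted p = 0.0362 for Syt1 and log2 3.12 ± 0.57, adjusted p = 0.00751 for Syt4. Syt4 shares 14.5% of its exon length with an opposite-strand gene model, Gm26658. Snap25, a membrane SNARE, ran from 6.38 to 12.7 CPM in the Head libraries and 1.39 to 5.62 in the Tail libraries and passed over the genotypes (log2 1.74 ± 0.26).

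Of the 9 transcription factors, 7 were higher in the Head over the genotypes and 0 lower, with a median of log2 1.60. Ebf3, of the COE family that acts in postmitotic neurons, was in the Head at 66.7 and 67.0 CPM for WT, 64.6 and 68.4 for DKO, 60.1 and 68.4 for Fuz KO and 53.8 and 60.3 for Gpr161 KO. In the Tail, Ebf3 was at 22.3 and 29.2 CPM for WT, 19.0 and 15.9 for DKO, 13.4 and 24.8 for Fuz KO and 17.5 and 17.0 for Gpr161 KO. Head values were even across genotypes, and the regions did not overlap. Ebf3 differed by log2 1.37 ± 0.22, adjusted p = 0.00333 in WT and by log2 1.70 ± 0.11, adjusted p = 2.87e-07 over the genotypes. Ebf2, its relative, had Head values of 37.5 and 34.2 CPM for WT, 31.5 and 33.6 for DKO, 18.8 and 33.2 for Fuz KO and 31.4 and 36.9 for Gpr161 KO. Its Tail values were 10.2 and 17.4 CPM for WT, 11.1 and 9.61 for DKO, 8.25 and 16.1 for Fuz KO and 12.4 and 16.4 for Gpr161 KO. Here the lowest Head library, Fuz KO 1, was just above the highest Tail library, WT 2. Ebf2 differed by log2 1.38 ± 0.34, adjusted p = 0.0405 in WT and by log2 1.34 ± 0.17, adjusted p = 7.56e-05 over the genotypes.

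Neurod1, a bHLH factor downstream of the neurogenins, was in the Head at 17.2 and 14.3 CPM for WT, 15.9 and 14.1 for DKO, 13.4 and 20.0 for Fuz KO and 11.0 and 11.5 for Gpr161 KO. In the Tail, Neurod1 was at 1.34 and 8.69 CPM for WT, 4.45 and 2.64 for DKO, 0.335 and 4.54 for Fuz KO and 1.37 and 2.76 for Gpr161 KO. Tail Fuz KO 1 was by far the lowest, and the regions did not overlap (log2 2.24 ± 0.48, adjusted p = 0.00675). Nhlh1, a bHLH factor of cells that have just left the cycle, had Head values of 22.1 and 25.7 CPM for WT, 25.2 and 24.6 for DKO, 17.2 and 28.8 for Fuz KO and 15.4 and 18.7 for Gpr161 KO. Its Tail values were 4.74 and 22.1 CPM for WT, 12.6 and 6.71 for DKO, 2.81 and 8.34 for Fuz KO and 7.48 and 8.62 for Gpr161 KO. Tail WT 2 lay among the Head libraries, and Nhlh1 passed over the genotypes (log2 1.33 ± 0.32, adjusted p = 0.0107) and not in WT (log2 0.83 ± 0.63, adjusted p = 0.694).

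Nhlh2 and Neurod4 are described because they did not pass and were chosen after their values were seen. In the Head, Nhlh2 was at 46.3 and 52.1 CPM for WT, 28.2 and 38.7 for DKO, 9.01 and 47.5 for Fuz KO and 21.3 and 35.9 for Gpr161 KO. In the Tail, Nhlh2 was at 8.42 and 38.0 CPM for WT, 11.0 and 13.8 for DKO, 0.773 and 17.1 for Fuz KO and 6.25 and 8.41 for Gpr161 KO. Both Fuz KO 1 libraries were the lowest of their region, and the difference was log2 1.53 ± 0.59, adjusted p = 0.095 without a block and passed with one (adjusted p = 0.0164). In the Head, Neurod4 was at 13.6 and 19.0 CPM for WT, 11.1 and 14.3 for DKO, 5.24 and 13.3 for Fuz KO and 25.7 and 24.7 for Gpr161 KO. In the Tail, Neurod4 was at 9.00 and 47.0 CPM for WT, 19.3 and 27.9 for DKO, 3.40 and 24.3 for Fuz KO and 11.0 and 13.6 for Gpr161 KO. Neurod4 was the only one of the 35 with a negative estimate (log2 -0.30 ± 0.44, adjusted p = 0.692), its regions overlapped, and 4 of 8 Tail libraries were above the mean of Head WT.

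The remaining factors, Onecut1 (log2 1.67 ± 0.23), Onecut2 (log2 1.63 ± 0.27) and the zinc finger factor Myt1 (log2 1.60 ± 0.47, adjusted p = 0.0325), passed over the genotypes. Onecut1 and the gene model Gm20649 overlap on the same strand over 52.8% of Onecut1's exon length, so its counts may be incomplete. For Onecut2, which ran from 29.2 to 43.1 CPM in the Head libraries and 4.77 to 23.5 in the Tail libraries, the regions did not overlap. Of the axon surface genes, Dcc, the netrin receptor that guides commissural axons, ran from 6.89 to 20.5 CPM in the Head libraries and 1.42 to 9.42 in the Tail libraries (log2 2.08 ± 0.20, adjusted p = 7.85e-06). Cntn2, an adhesion protein of early outgrowing axons, ran from 8.41 to 58.0 CPM in the Head libraries and 4.28 to 39.8 in the Tail libraries (log2 1.32 ± 0.40, adjusted p = 0.0398).

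All 4 sensory genes were higher in the Head over the genotypes, with a median of log2 1.45. Pou4f1, a homeodomain factor of sensory and some dorsal spinal neurons, was in the Head at 22.4 and 20.2 CPM for WT, 16.8 and 14.1 for DKO, 13.7 and 21.8 for Fuz KO and 7.61 and 11.1 for Gpr161 KO. In the Tail, Pou4f1 was at 6.08 and 13.1 CPM for WT, 5.77 and 4.11 for DKO, 2.68 and 8.44 for Fuz KO and 2.39 and 2.66 for Gpr161 KO. Head Gpr161 KO 1 and 2 were the lowest Head libraries and lay below Tail WT 2, and both Tail Gpr161 KO libraries were under every other Tail library. The difference between regions was log2 1.59 ± 0.24, adjusted p = 0.000346. Prph, the intermediate filament of peripheral neurons, had Head values of 2.74 and 2.79 CPM for WT, 1.51 and 2.46 for DKO, 1.43 and 2.52 for Fuz KO and 0.985 and 5.12 for Gpr161 KO. Its Tail values were 0.670 and 0.640 CPM for WT, 0.785 and 0.196 for DKO, 0.773 and 0.469 for Fuz KO and 0.805 and 0.413 for Gpr161 KO. All Tail libraries were under 1 CPM and under every Head library (log2 2.02 ± 0.37, adjusted p = 0.00128). Ntrk3 (log2 0.76 ± 0.19) and Chrna3, a nicotinic receptor subunit of ganglionic neurons (log2 1.31 ± 0.30), also passed.

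Because 33 of the genes moved together between regions, the 250 bases before their annotated starts were searched for 2 E-boxes, the letters bound by bHLH factors such as the proneural proteins: CAGCTG, which reads the same on both strands, and CAGATG, read as CATCTG on the other strand. The RefSeq promoter table (GRCm38.p6) held 24 of the 35 genes. Of their 46 windows, 9 held CAGCTG (19.6%, in 6 genes), against 13% of all 32851 windows in the table, and 10 held CAGATG (21.7%, in 6 genes), against 14.4%. Either was present in 17 windows (37%, in 10 genes), against 25.5%. Windows of 1 gene can overlap, and the 24 genes had 1.92 windows each, against 1.22 over all genes. A match is a description of the letters and not a site. Shown are 5 members with a match that carry results here, Elavl3, Syt1, Rtn1, Stmn3 and Pou4f1, each read 5′ to 3′ toward the start, with the E-box in capitals.
Elavl3 (chr9:22052024-22052273, minus strand): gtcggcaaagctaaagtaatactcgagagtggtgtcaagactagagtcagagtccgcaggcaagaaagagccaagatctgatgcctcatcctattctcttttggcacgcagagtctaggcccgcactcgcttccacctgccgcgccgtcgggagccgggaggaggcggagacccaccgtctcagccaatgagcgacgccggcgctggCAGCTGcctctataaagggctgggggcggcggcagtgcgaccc
Syt1 (chr10:109009112-109009361, minus strand): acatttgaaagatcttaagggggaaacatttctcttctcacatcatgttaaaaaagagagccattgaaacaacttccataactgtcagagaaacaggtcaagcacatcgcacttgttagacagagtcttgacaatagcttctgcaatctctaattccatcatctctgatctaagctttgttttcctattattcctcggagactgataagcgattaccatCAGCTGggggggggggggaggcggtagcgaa
Rtn1 (chr12:72409055-72409304, minus strand): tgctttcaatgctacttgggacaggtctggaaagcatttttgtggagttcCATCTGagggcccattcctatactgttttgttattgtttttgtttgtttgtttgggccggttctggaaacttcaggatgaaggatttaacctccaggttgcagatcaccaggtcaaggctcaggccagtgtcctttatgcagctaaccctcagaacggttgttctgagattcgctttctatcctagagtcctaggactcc
Stmn3 (chr2:181314501-181314750, minus strand): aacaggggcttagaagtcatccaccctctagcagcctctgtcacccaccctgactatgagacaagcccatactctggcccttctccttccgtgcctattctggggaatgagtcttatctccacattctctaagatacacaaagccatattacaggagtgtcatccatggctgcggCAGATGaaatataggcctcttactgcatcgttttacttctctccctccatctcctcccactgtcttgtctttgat
Pou4f1 (chr14:104468000-104468249, minus strand): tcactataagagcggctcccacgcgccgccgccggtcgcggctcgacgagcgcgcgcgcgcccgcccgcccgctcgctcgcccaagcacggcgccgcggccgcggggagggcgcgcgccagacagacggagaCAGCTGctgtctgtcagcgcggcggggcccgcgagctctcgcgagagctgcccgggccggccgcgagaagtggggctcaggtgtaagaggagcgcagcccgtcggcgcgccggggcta
Elavl3, Syt1 and Pou4f1 hold CAGCTG, and Rtn1 and Stmn3 hold CAGATG, in Rtn1 as CATCTG. Rtn1 and Syt1 also have windows at other starts that hold neither E-box and are not shown. Of these 5, Rtn1 and Syt1 passed between regions in WT and all 5 passed over the genotypes. The 5 were chosen from 10 matching genes as ones that carry results, so their passing does not bear on the E-boxes. Nhlh2, which did not pass between regions without a block, also holds CAGATG.

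The genes varied together between libraries of 1 group, most in Tail WT and Tail Fuz KO. Tail WT 2 was above Tail WT 1 in 34 of 35 genes, by a median of log2 1.62, and by over 2-fold in 28, while 15.5% of all genes differed over 2-fold between these libraries. Tail Fuz KO 2 was above Tail Fuz KO 1 in 33 genes (median log2 1.57, 22 over 2-fold, 21.4% of all genes). In the Head the differences were smaller than in Tail WT and Tail Fuz KO. The Head medians were log2 0.81 in Fuz KO and 0.63 in Gpr161 KO, again higher in number 2. Tail Gpr161 KO differed less, with 27 of 35 genes higher in number 2 (median log2 0.19). Tail DKO went the other way, with 29 of 35 genes higher in number 1 (median log2 -0.31 for number 2 over 1), and Head DKO was near even, with 18 higher in number 2 and 17 in number 1. Summed over the 35 genes, CPM came to 1956 and 2103 for Head WT, 1493 and 1626 for DKO, 1217 and 1949.5 for Fuz KO, and 1455 and 2290 for Gpr161 KO. For the Tail the sums were 408 and 1169 for WT, 556 and 466 for DKO, 249 and 583 for Fuz KO, and 391 and 442 for Gpr161 KO. Tail WT 2 was thus above all other Tail libraries, and Tail WT 1 below 4 of the 6 mutant Tail libraries.

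**Figure D4:**
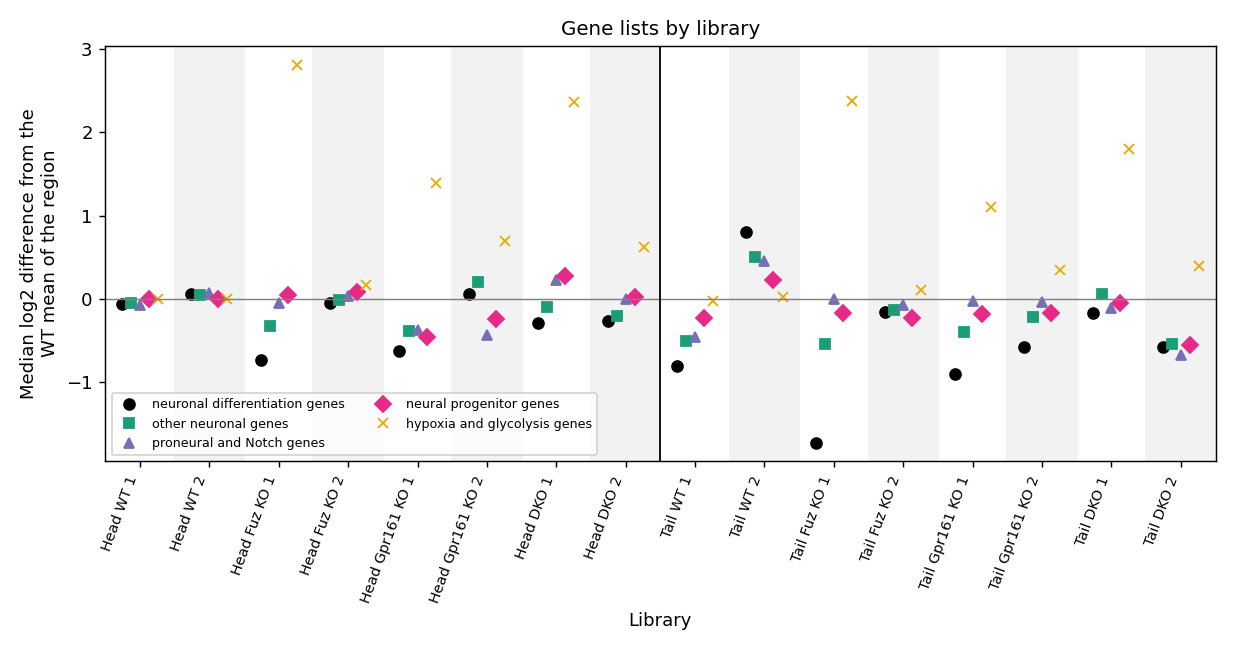
Each symbol is the median log2 difference of a gene list from the WT mean of its region in 1 library: the 35 neuronal differentiation genes (circles), other neuronal genes (squares), proneural and Notch genes (triangles), neural progenitor genes (diamonds) and hypoxia and glycolysis genes (crosses). The circles span -0.81 to 0.81 between Tail WT 1 and 2 and reach -1.73 in Tail Fuz KO 1, where the crosses are at 2.38.

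Other lists moved with these libraries. A list of 20 hypoxia and glycolysis genes stood at a median of log2 2.81 over the WT mean in Head Fuz KO 1 and 2.38 in Tail Fuz KO 1, against 0.17 and 0.11 in the Fuz KO 2 libraries. In the same libraries, the 35 genes were at -0.74 and -1.73, against -0.04 and -0.16. The DKO 1 libraries were at 2.37 and 1.80 for hypoxia genes and at -0.29 and -0.17 for the 35 genes. In the fit, all 20 hypoxia genes were also above 0 in Gpr161 KO against WT, with 0 called higher in either region. Their medians there were log2 1.12 in the Head and 0.78 in the Tail. Between Tail WT 1 and 2 the hypoxia list did not part the libraries (-0.03 and 0.03), while the neural progenitor list did so less than the 35 genes (-0.23 and 0.23 against -0.81 and 0.81). The part of these in the results was not tested.

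No single gene passed in any comparison of a mutant with WT within a region, and most estimates were below 0, a direction that turned under some alternatives. In the Head, 0 of 35 were called in Fuz KO (0.047% of all genes), Gpr161 KO (2.02%) or DKO (0.0329%), and in the Tail 0 in Fuz KO (0.0094%), Gpr161 KO (0.305%) or DKO (0.0423%), all by edgeR. At an unadjusted p under 0.05, 0, 3 and 2 genes were lower in the Head and 3, 8 and 3 in the Tail, in the same order, and 0 were higher, where 3.22%, 4.72%, 2.36%, 2.85%, 3.97% and 4.56% of all genes were lower and 4.95%, 8.18%, 1.97%, 2.36%, 3.01% and 2.63% higher. DESeq2 called 1 gene lower in Head Gpr161 KO and 2 in Tail Gpr161 KO, and 0 in the other 4 comparisons, where 0.155%, 1.46%, 0.216%, 0.0705%, 1.04% and 0.484% of all genes were called lower, in the order above. The medians were log2 -0.32, -0.23 and -0.36 in the Head and -0.97, -0.99 and -0.57 in the Tail, with 31, 25, 32, 34, 32 and 33 genes below 0. All 3 comparisons of a region share its WT libraries, so these are not separate observations. Without Tail WT 2 the Tail medians were log2 0.14, 0.083 and 0.51. The Head medians turned too, to 0.083 in Fuz KO and 0.056 in DKO with sex as a term, and to 0.038 in Gpr161 KO without Head Gpr161 KO 1. The sex term was set by the Gpr161 KO pairs alone, male number 1 against female number 2, as every other group held 1 sex. In Head Gpr161 KO 34 of 35 genes were higher in number 2, so the term cannot part sex from other differences of those pairs.

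By role, the Head medians in Fuz KO ran from log2 -0.06 for transcription factors to -0.82 for the axon surface genes, Cntn2 and Dcc. Cntn2 was at 8.41 and 37.7 CPM in Head Fuz KO against 50.5 and 57.5 for WT, with Fuz KO 1 the lowest Head library (log2 -1.23 ± 0.80, adjusted p = 0.631). In DKO, Syt4 (log2 -1.16 ± 0.52, adjusted p = 0.957) and Rtn1 (log2 -0.62 ± 0.26, adjusted p = 0.957) had the lowest unadjusted p. Stmn4 was above both WT libraries in all 4 Fuz KO and DKO Head libraries, at 22.2 and 27.0 and 24.4 and 21.7 CPM against 15.1 and 17.5, and passed in neither (log2 0.59 ± 0.47, adjusted p = 0.665 in Fuz KO). Of all genes, 18.6% in Fuz KO and 21.3% in DKO had both mutant Head libraries above both WT libraries. In the Tail, Crmp1 was lower than both WT libraries in all 6 mutant libraries, at 81.6 and 95.6 CPM for WT, 63.2 and 54.3 for DKO, 65.4 and 69.4 for Fuz KO and 63.6 and 68.7 for Gpr161 KO, and did not pass (adjusted p = 0.816 in Fuz KO, 0.386 in DKO and 0.575 in Gpr161 KO). Both mutant libraries lay below both WT libraries for 18% of all genes in Fuz KO, 20.8% in DKO and 22% in Gpr161 KO.

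Loss of Gpr161 gave the clearest differences from WT. Averaged over Head and Tail, a comparison added after the data were seen, Dcc fell (log2 -1.70 ± 0.29, adjusted p = 0.00791) and Pou4f1 fell (log2 -1.55 ± 0.34, adjusted p = 0.0318), 2 of 35 genes against 0.921% of all genes called lower and 2.61% called either way. In the Head, Dcc was at 16.0 and 20.5 CPM for WT, 17.9 and 15.0 for DKO, 9.89 and 17.6 for Fuz KO and 6.89 and 7.56 for Gpr161 KO. In the Tail, Dcc was at 3.80 and 9.42 CPM for WT, 3.23 and 2.07 for DKO, 2.86 and 3.90 for Fuz KO and 1.75 and 1.42 for Gpr161 KO. Both Gpr161 KO libraries were the lowest of their region in Head and Tail, below every DKO and Fuz KO library. Within a region Dcc did not pass by edgeR (Head log2 -1.34 ± 0.39, adjusted p = 0.119; Tail log2 -2.06 ± 0.42, adjusted p = 0.0698) and passed by DESeq2 (adjusted p = 0.0154 and 0.00016). Pou4f1, whose values are given above, was at log2 -1.18 ± 0.47, adjusted p = 0.293 in the Head and log2 -1.92 ± 0.49, adjusted p = 0.205 in the Tail, where DESeq2 called it (adjusted p = 0.0039).

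Over both regions the call of Dcc held without each single library, and that of Pou4f1 in 8 of 16 such settings, failing without Tail WT 2, Head DKO 2, or any 1 of the Head WT or Gpr161 KO libraries. Over all genes, Head and Tail libraries of 1 genotype and number deviated together, so they are not independent here. A limma voom fit with that correlation (0.425), added after the data were seen, called Dcc alone (adjusted p = 0.0461, 0.897% of all genes called) and not Pou4f1 (0.116). A block on the number across genotypes, which is not known to pair libraries, called 4 (3.38% of all genes), with Elavl2 (adjusted p = 0.0291) and Stmn3 (0.0206). With sex as a term neither was called (adjusted p = 0.0777 for Dcc and 0.272 for Pou4f1), and DESeq2 called 5 genes lower (2.45% of all genes), adding Elavl2, Stmn3 and Stmn4. Elavl2 was at 35.8 and 38.9 CPM in Head Gpr161 KO against 68.6 and 60.7 in WT, and at 15.9 and 15.4 in the Tail against 21.1 and 49.4 (log2 -0.98 ± 0.26, adjusted p = 0.0742). Stmn3 was at 1.11 and 1.96 CPM in Tail Gpr161 KO against 3.35 and 13.8 in WT, and at 12.9 and 27.0 in the Head against 36.5 and 37.5 (log2 -1.68 ± 0.52, adjusted p = 0.144). Stmn4 was at 1.75 and 1.96 CPM in Tail Gpr161 KO against 2.73 and 7.36 (log2 -1.01 ± 0.34, adjusted p = 0.163). For all 3 the Gpr161 KO libraries lay below both WT libraries in each region. The same held for 25.1% of all genes in the Head and 22% in the Tail. Nefm went the other way in the Head, with 246 and 448 CPM against 176 and 189, and did not pass (log2 0.93 ± 0.77, adjusted p = 0.706). For Fuz KO and DKO averaged over regions, 0 of 35 genes passed by edgeR (0.0611% and 0.103% of all genes). At an unadjusted p under 0.05, 5 and 3 were lower (6.01% and 5.18%), and DESeq2 called 0 and 1 (0.606% and 0.968%), Crmp1 in DKO with an adjusted p of 0.0461.

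**Figure D5:**
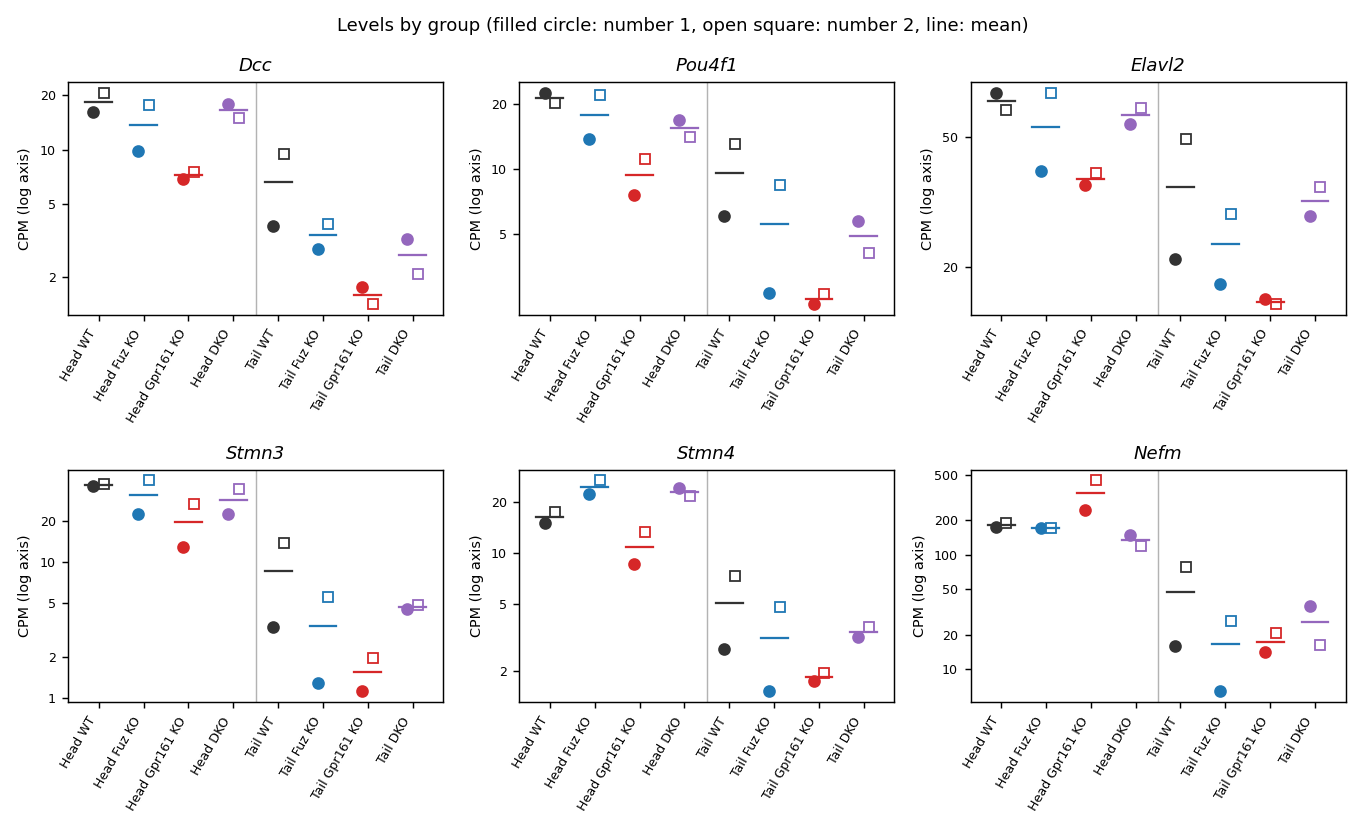
CPM on a log axis by group for Dcc, Pou4f1, Elavl2, Stmn3, Stmn4 and Nefm, with number 1 as filled circles, number 2 as open squares and the group mean as a line. For Dcc and Pou4f1 the red Gpr161 KO symbols are the lowest of each region, while for Nefm they are the highest of the Head (246 and 448 CPM).

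The Head Gpr161 KO libraries also had higher sums of cardiomyocyte markers and of a motor neuron list. The summed CPM of 15 cardiomyocyte markers was 2636 and 562 there, against 12.9 and 15.6 in Head WT. The 12 motor neuron genes summed to 189 and 204 CPM, against 70.2 and 90.7 in WT, and Nefm and Prph are also made by motor neurons. Of the 12, 9 were above 0 and only Tbx20 was called higher (log2 3.16, adjusted p = 0.00944). In the same comparison 11 of the 15 cardiomyocyte markers were called higher, against 1.51% of all genes. In bulk tissue the cells that made Tbx20 cannot be told. In Head Gpr161 KO 1 and 2, Prph was at 0.985 and 5.12 CPM, the lowest and the highest of the Head libraries. In the Tail Gpr161 KO libraries the cardiomyocyte sum was 53.0 and 46.9 CPM against 95.9 and 206 in WT. The part of these in the results was not tested.

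Loss of Fuz on top of Gpr161 gave no call among the 35 by edgeR over all 16 libraries. In the Head, DKO against Gpr161 KO called 0 genes (4.16% of all genes) by edgeR, with 6 at an unadjusted p under 0.05 (17.7%), and DESeq2 called 2 (8.48%). These were Dcc, higher in DKO (log2 1.19 ± 0.39, adjusted p = 0.117, DESeq2 adjusted p = 0.0322), and Rtn1, lower (log2 -0.90 ± 0.26, adjusted p = 0.0782, DESeq2 adjusted p = 0.0195). With the Head fitted alone, edgeR called Nefm. Dcc in the Head DKO libraries was at 17.9 and 15.0 CPM, within the range of Head WT and Fuz KO, and did not overlap Gpr161 KO at 6.89 and 7.56. For 25.1% of all genes both Head DKO libraries lay above both Head Gpr161 KO libraries. In the Tail, DKO against Gpr161 KO called 0 (0.522%), with 1, Elavl2, at an unadjusted p under 0.05 (12.2%; log2 1.03 ± 0.36, adjusted p = 0.268), and DESeq2 called 0 (3.37%). Against Fuz KO, DKO called 0 in the Head (0.0282%) and 0 in the Tail (0.0329%), with 0 in either region at an unadjusted p under 0.05 (2.89% and 3.69%). DESeq2 called 0 in both (0.0564% and 0.117%).

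Non-additivity, the DKO's log2 effect minus those of both single knockouts added up, had a median of log2 0.28 in the Head and 1.51 in the Tail, where 31 of 35 genes were above 0. No gene passed in the Head (0.164% of all genes) or the Tail (0.0423%), by edgeR, with 1 and 5 at an unadjusted p under 0.05 (8.02% and 6.24%), and DESeq2 called 0 in both (1.48% and 0.583%). The Tail median was 0.20 without Tail WT 2. The effect of each genotype in the Tail minus that in the Head was called by edgeR for 0 genes in Fuz KO (0% of all genes), Gpr161 KO (0.094%) and DKO (0%). At an unadjusted p under 0.05 there were also 0 (2.12%, 5.26% and 3.25%), and DESeq2 called 0 (0%, 1.07% and 0.0517%). The medians of these differences were log2 -0.56, -0.67 and -0.27.

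Other genes of the neural lineage, from lists written with earlier results of these data known, were counted between regions too. Of 30 further neuronal genes, 26 were higher in the Head over the genotypes and 1 lower (median log2 1.67), against 13.2% and 10.6% of all genes, and of 14 neural progenitor genes 12 were higher and 2 lower (median log2 1.13). Of 18 proneural and Notch genes, 11 were higher and 1 lower (median log2 0.71). The lists of motor neuron genes (3 higher and 3 lower of 12) and spinal interneuron genes (7 higher and 3 lower of 20) were mixed. Of 10 mesenchyme markers 0 were higher and 7 lower (median log2 -1.58), of 10 endothelial markers 8 were lower, and of 6 genes for REST, the repressor of neuronal genes, and its cofactors, 0 passed.

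Over the 16 libraries, each of the 35 genes was compared with the mean of the other 34 on standardised log2 CPM, as a description over libraries that share regions and genotypes. Pearson's r ran from 0.329 for Neurod4 to 0.994 for Tubb3, with Ntrk3 (0.683) and Prph (0.772) the next lowest. Within the 8 Tail libraries Neurod4 followed the others (r = 0.890), and Prph (-0.07) and Ntrk3 (0.248) did not. Within the 8 Head libraries the lowest were Ntrk3 (-0.18), Onecut1 (-0.04) and Stmn4 (0.0993). Among 11363 other genes with a mean of at least 5 CPM, those most like the mean of the 35 were Atcay (r = 0.984), Ncan (0.983), Pou3f4 (0.982), Srrm4 (0.979), Kif5a (0.979), Fam219a (0.977), Insm1 (0.976), Gpm6b (0.976), Brsk2 (0.975) and Rtl5 (0.974).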

How the data were processed

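The authors deposited 1 table of raw read counts per Ensembl gene for each of the 16 libraries, with no normalization. The labels' protocols give Trizol and a Zymo column kit with DNase for extraction, and NEBNext Ultra preparation after poly-A selection. The submitters' processing notes name the build GRCm39 and, as tools, HTSeq, featureCounts 1.6.0, StringTie 2.0.4, Picard 2.20.4, STAR 2.7.1a, Trimmomatic and FastQC. Which of them made the counts, and with which strand setting, is not given in the sources used here. Gene names and exon lengths came from a GRCm38 annotation matched by identifier (54723 of 54838 named), so no coordinates of the counts are given, and the promoter windows are RefSeq's on GRCm38.p6.

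After filterByExpr, edgeR 4.0.16 in R 4.3.3 fitted the 16 libraries jointly, with 1 coefficient for each of the 8 groups (TMM scaling, robust quasi-likelihood F-test, 8 residual degrees of freedom, common biological coefficient of variation 0.257). Adjusted p-values are Benjamini-Hochberg over all 21284 genes tested. The SE is the log2 fold change divided by the square root of F. Log2 CPM per library used a prior count of 0.5, and exon length was the union of a gene's exons. Means carry no SD where both values are printed. The fit was tested on simulated data.

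The members and lists were chosen with earlier results of these data known. Values in every library are given for members called in Head WT against Tail WT, for Tubb3, Dcx, Elavl3, Neurod1, Nhlh1, Pou4f1 and Prph by a rule set with the list, and for Dcc, Nefm, Nhlh2 and Neurod4, chosen after their values were seen. Where single-library values of other members are printed, these were picked by their results in these data. Sex was read from Xist and Y-linked transcripts.

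The difference between numbers 1 and 2 correlated across genes between Head and Tail of a genotype (r of 0.437 for Fuz KO, 0.282 for DKO, 0.196 for Gpr161 KO and 0.133 for WT with a prior count of 2, and 0.0996 for WT with 0.5). The numbers come from the sample titles, and were taken to pair the regions. Alternatives were DESeq2 1.42.0, RLE scaling, no filter, a minimum of 5 CPM in 2 libraries, a replicate block, separate fits of Head and Tail, sex as a term, limma 3.58.1's voom with Head and Tail of 1 number correlated, removal of haemoglobin, mitochondrial and cardiomyocyte genes, and leaving out libraries.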

Additional observations from a re-analysis of the deposited data

How the results depend on the processing

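The median log2 difference of the 35 genes kept within the spread between replicates under 568 of 590 combinations of comparison and alternative, and the count of genes called within 1.5 times under 518 of 590. Many of these left out a library of a group not compared, which could move little. The spread was wide in the Tail, so a median could change sign and still count as kept. Of the 590 medians, 24 had the other sign. The 33 calls between regions over the genotypes ranged from 27 to 34 without each library. With no filter on low counts, the calls were 6 in Head Fuz KO, 9 in Head Gpr161 KO, 3 in Head DKO, 18 in Tail Fuz KO, 21 in Tail Gpr161 KO and 12 in Tail DKO against WT, 31 for Head WT against Tail WT, 33, 34 and 34 for Head against Tail within Fuz KO, Gpr161 KO and DKO, 9 and 10 for DKO against Gpr161 KO in Head and Tail, 4 for Tail DKO against Fuz KO, 4 and 21 for the non-additivity in Head and Tail, 3 and 9 for the Fuz KO and Gpr161 KO effects between regions, and 21, 21 and 16 for Fuz KO, Gpr161 KO and DKO over both regions, while 0.166% to 5.6% of the 42241 genes were called in these comparisons. In that fit edgeR's prior degrees of freedom were infinite, so every gene took the spread of the trend (median quasi-dispersion of the 35 genes 0.576, against 3.33 with the filter) and the replicates of the single gene did not bear on its call.

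DESeq2 gave 1 call in Head Gpr161 KO, 2 in Tail Gpr161 KO, 11 for Head WT against Tail WT, 2 for Head DKO against Gpr161 KO, 25, 25 and 19 between regions within Fuz KO, Gpr161 KO and DKO, and 5 and 1 for Gpr161 KO and DKO over both regions. The replicate block gave 12 calls for Head WT against Tail WT and 4 for Gpr161 KO over both regions, ended the calls of Nefm and Elavl3 between regions within Fuz KO and added that of Nhlh2 over the genotypes. It moved no other count by over 1.5 times. Across genotypes the numbers are not known to pair libraries. The voom fit with Head and Tail of 1 number correlated gave 1 call for Gpr161 KO over both regions. With sex as a term, the medians were log2 0.083 in Head Fuz KO and 0.056 in Head DKO. Calls were then 10 between regions within Gpr161 KO and 0 for Gpr161 KO over both regions (0.7% of all genes). That term was set by the Gpr161 KO pairs alone, so it is not a clean adjustment for sex. Each region fitted alone gave 1 call, Nefm, for Head DKO against Gpr161 KO (2.88% of all genes). When the Fuz KO 1 libraries were left out, with or without those of DKO, the share of all genes called rose too. It did so in Tail Gpr161 KO and in DKO over both regions. The counts that follow are therefore not results about the listed genes alone. Without both Fuz KO 1 libraries, calls were 2 in Tail Gpr161 KO, 6 between regions within Fuz KO and 1 for DKO over both regions. Without the DKO 1 libraries as well, they were 1 in Tail Gpr161 KO and 2 and 3 between regions within Fuz KO and DKO, and the Tail non-additivity median was 0.55.

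Leaving out each library in turn gave 2 to 15 calls for Head WT against Tail WT (median log2 0.88 to 2.35), 4 to 19 within Fuz KO, 3 to 20 within Gpr161 KO (median 1.58 to 2.29), 4 to 16 within DKO, 1 to 3 for Gpr161 KO over both regions (median -0.97 to 0.057), 0 to 2 for Fuz KO over both regions, 0 to 2 for Tail Gpr161 KO and 0 to 1 for Head DKO against Gpr161 KO. Medians ranged from -0.79 to -0.048 in Head Fuz KO, -0.66 to 0.038 in Head Gpr161 KO, -1.65 to 0.083 in Tail Gpr161 KO, -1.18 to 0.51 in Tail DKO, -0.34 to 0.47 for Head DKO against Fuz KO, -0.33 to 0.34 for Head DKO against Gpr161 KO, -0.060 to 0.77 and 0.20 to 2.33 for the non-additivity in Head and Tail, and -1.61 to 0.59, -1.34 to 0.38 and -0.89 to 0.84 for the Fuz KO, Gpr161 KO and DKO effects in the Tail minus the Head. The upper ends of the Tail ranges against WT came without Tail WT 2. Neurod4 ranged from log2 -1.50 to 0.87 in WT (without Tail WT 1 and 2), and from -0.51 (without Head Fuz KO 2) over the genotypes to 0.11 without Tail WT 2 and 0.20 without Tail Fuz KO 2. A library left alone in its group was assumed to vary like the others. The share of all genes called moved between these settings too, so the ranges of calls do not describe the listed genes alone.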

Other observations

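Neural genes outside the 35 also differed in Gpr161 KO over both regions, among lists written with earlier results of these data known. Of 14 neural progenitor genes, 0 were higher and 5 lower, Gas1, Pax6, Zic1, Hes5 and Fabp7. Of 12 motor neuron genes, Tbx20 and Isl1 were higher and 0 were lower, while 2.61% of all genes were called in this comparison. The motor neuron list as a whole did not rise, with 5 genes above 0 and 7 below (median log2 -0.11). Of 15 cardiomyocyte markers, 7 were called higher and 0 lower in the same comparison. Isl1, Hes5 and Fabp7 each stand on 2 of the lists. In bulk tissue the cells that made Tbx20 and Isl1 cannot be told.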
